A study of Mus musculus with 9 samples.

Results

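The OCTN genes of the mouse, Slc22a4, Slc22a5 and Slc22a21, were followed by mouse, group and cell type in single-cell RNA sequencing of the kidneys of 9 mice. They are 3 of 32427 genes in the matrices and were chosen by name. Slc22a4 (OCTN1) is the membrane carrier of ergothioneine (EGT), the compound given in this study. Slc22a5 (OCTN2) takes up carnitine with sodium at the brush border of the proximal tubule, and its loss causes carnitine deficiency through urinary wasting. Slc22a21 (OCTN3) is a rodent carnitine transporter. Ergothioneine and carnitine are both zwitterions that cells cannot take up without a carrier, and the tubule recovers them from the filtrate.

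All mice were male C57BL/6 and 6 weeks old at the start, with kidneys taken after 8 weeks, and every group held 3 mice. Control mice received saline. AKI-CKD mice received 4 weekly intraperitoneal injections of cisplatin at 8 mg/kg, a model of acute kidney injury passing into chronic kidney disease. AKI-CKD + EGT mice received the same cisplatin with ergothioneine at 0.5 mg/mL in the drinking water, begun before the first injection and kept up to the end. No group received EGT without cisplatin, and a part of the kidney tissue of each mouse was dissociated.

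The libraries held between 70106161 and 101525691 UMIs (unique molecular identifiers, 1 for each captured transcript). After cells with fewer than 1000 UMIs, fewer than 500 genes or more than 15% mitochondrial UMIs were removed, 196925 of 216680 barcodes were kept, with a median of 2714 UMIs. The median mitochondrial share per mouse ran from 1.23% in Control 3 to 6.86% in Control 1 and 7.64% in AKI-CKD + EGT 3. Cell types were assigned from clusters by marker genes and are called "-like", and the clustering did not use the 3 OCTN genes. Proximal tubule (PT) cells made up 168217 cells or 85.4%, divided into 72334 S1-like, 32103 intermediate and 63780 S3-like cells. S1-like and S3-like clusters scored higher by over 1 log2 unit on the markers of their own segment than on those of the other, and the 2 intermediate clusters lay within that margin. They are not named after the S2 segment, because their S1 scores (0.28 and 0.71 against the median of PT clusters) exceeded their S2 scores (-0.03 and 0.02). The S3-like clusters of 25407, 13683 and 3414 cells had S2 scores of 0.57, 0.75 and 0.44 beside S3 scores of 0.72, 0.87 and 0.55. Those of 21048 and 228 cells had -0.04 and -0.62 beside 0.31 and 2.76. The S3-like class therefore does not separate S2 from S3. The S1-like cluster of 12959 cells had an S1 score of only 0.22, beside an S3 score of -0.87. The loop of Henle (LOH) gave 3419 cells, the distal convoluted tubule (DCT) 4348, the connecting tubule (CNT) 2069, intercalated cells of the collecting duct (CD-IC) 1195 and principal cells of the collecting duct (CD-PC) 1065. The remaining tested types were endothelial-like (2169 cells), macrophage-like (1180), T-like (816), B-like (631) and thin limb-like (574). A further 10751 cells (5.46%) stayed unnamed. Barcodes in the matrices are running names, so that sharing of cell barcodes between libraries could not be assessed.

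The OCTN genes lie side by side on the minus strand of chromosome 11, and their sequences decide which counts can be told apart. In GENCODE vM21 on GRCm38 each has 10 coding exons, with 553 codons in Slc22a4 (ENSMUSG00000020334.6), 557 in Slc22a5 (ENSMUSG00000018900.7) and 564 in Slc22a21 (ENSMUSG00000063652.10). Over coding exons of equal length, Slc22a5 and Slc22a21 matched at 92.3% of 1485 bases, whereas Slc22a4 matched Slc22a5 at 77.2% of 1586 bases and Slc22a21 at 76.8% of 1485 bases. The longest run of coding bases that Slc22a5 and Slc22a21 share exactly is 157 bases long, lies in coding exon 8 and is shown here with the aligned stretch of Slc22a4, in which capitals mark the 34 bases that differ from Slc22a5. The stretches lie at chr11:53867528-53867684 for Slc22a5, chr11:53953006-53953162 for Slc22a21 and chr11:53988787-53988943 for Slc22a4 (GRCm38, minus strand, written 5′ to 3′ along the transcript).
Slc22a5: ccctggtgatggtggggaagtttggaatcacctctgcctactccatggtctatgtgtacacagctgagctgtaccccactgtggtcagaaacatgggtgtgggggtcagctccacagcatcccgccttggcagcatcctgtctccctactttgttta
Slc22a21: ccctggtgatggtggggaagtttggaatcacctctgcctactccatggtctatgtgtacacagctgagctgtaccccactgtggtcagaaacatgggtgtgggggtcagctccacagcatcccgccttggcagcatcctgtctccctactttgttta
Slc22a4: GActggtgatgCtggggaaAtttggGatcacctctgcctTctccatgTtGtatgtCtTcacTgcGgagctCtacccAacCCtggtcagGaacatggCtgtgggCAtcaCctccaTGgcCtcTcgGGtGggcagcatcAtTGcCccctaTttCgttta

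The same pair also shares the end of the transcript, from which poly(dT)-primed libraries are mainly read. An exact run of 361 bases in the 3′ untranslated region ends 78 bases before the end of the Slc22a5 transcript and 75 bases before that of Slc22a21. In the last 1000 bases, 34.2% of all windows of 100 bases in either transcript occur unchanged in the other. Between Slc22a4 and either relative no such window was shared (0%), and the longest exact runs were 54 and 61 bases. Reads of Slc22a5 and Slc22a21 from the shared stretch fit both genes equally, and how the counting treated reads with several matches is not given in the sources used here. Every count of Slc22a21 given here carries that uncertainty, and so do the counts of Slc22a5. How many counts of Slc22a5 it affects was not determined.

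Slc22a4 was read in 13911 UMIs over all kept cells. Its level in PT cells was 19.9 ± 3.90 UMIs per 1000000 UMIs of the cells (CPM; SD, n = 9 mice), and 6.55% of PT cells held at least 1 UMI of it, or 1.81% once each cell had been thinned to 1000 UMIs. The highest level was not in the PT but in LOH-like cells, which carry salt transport in the thick ascending limb, at 30.9 ± 6.75 CPM. In LOH-like cells the Control mice had 26.5, 31.1 and 32.5 CPM, the AKI-CKD mice 30.3, 22.8 and 39.4 CPM and the AKI-CKD + EGT mice 21.5, 32.8 and 41.4 CPM. These values rest on 12 to 69 UMIs per mouse, and the 3 groups overlapped.

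PT transcripts leak into droplets of other cells, and a level in a rarer type was therefore set against what free PT RNA would give. That level was the median, over 10 PT transcripts such as Kap and Miox, of their ratio between a cell type and PT cells of the same mouse, multiplied by the PT level of the gene. For Slc22a4 in LOH-like cells it came to 5.45 ± 2.56 CPM, and all 9 mice lay above it. Slc22a4 also exceeded it in 9 of 9 mice in DCT-like cells (15.2 ± 3.07 against 6.30 ± 2.53 CPM) and thin limb-like cells (14.2 ± 5.03 against 4.69 ± 1.92 CPM). In macrophage-like cells the level was 16.2 ± 7.79 CPM against 10.04 ± 2.53 CPM, above in 7 of 9 mice, and in endothelial-like cells 8.66 ± 3.38 against 4.79 ± 2.09 CPM, also above in 7. CD-IC-like (10.7 ± 8.46 CPM) and CNT-like cells (7.00 ± 4.22 CPM) were above it in 7 mice each and CD-PC-like cells (8.47 ± 4.73 CPM) in 5. Clusters within a type could differ. The endothelial-like cluster of 1161 cells had 11.4 ± 5.58 CPM of Slc22a4. That of 1008 cells had 3.19 ± 3.09 CPM, below the free-RNA level of the type. Pooled over mice, the CD-IC-like cluster of 930 cells had 4.90 CPM and that of 265 cells 36.3 CPM. In B-like (7.71 ± 6.24 CPM) and T-like cells (6.25 ± 6.57 CPM) the mean lay below the free-RNA level of 10.7 and 9.03 CPM, which is background by this measure. The 379 stromal-like cells pooled gave 4.91 CPM of Slc22a4 from 7 UMIs (exact Poisson 95% interval 1.98 to 10.1, counting error only), and the 112 podocyte-like cells gave 0 UMIs, which allows up to 8.87 CPM at 3 counts (exact Poisson 95% interval 0 to 10.9). Types outside PT were named only where PT transcripts were at most 0.6 of the PT level, so that these counts hold for clusters low in them. Unnamed clusters led by Slc12a1 and Umod that exceeded this limit (2174 and 1665 cells) had 15.4 and 13.7 CPM of Slc22a4, pooled over mice. Another of 492 cells, where in addition 2 types scored within 1 log2 unit, had 25.8 CPM.

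**Figure D1:**
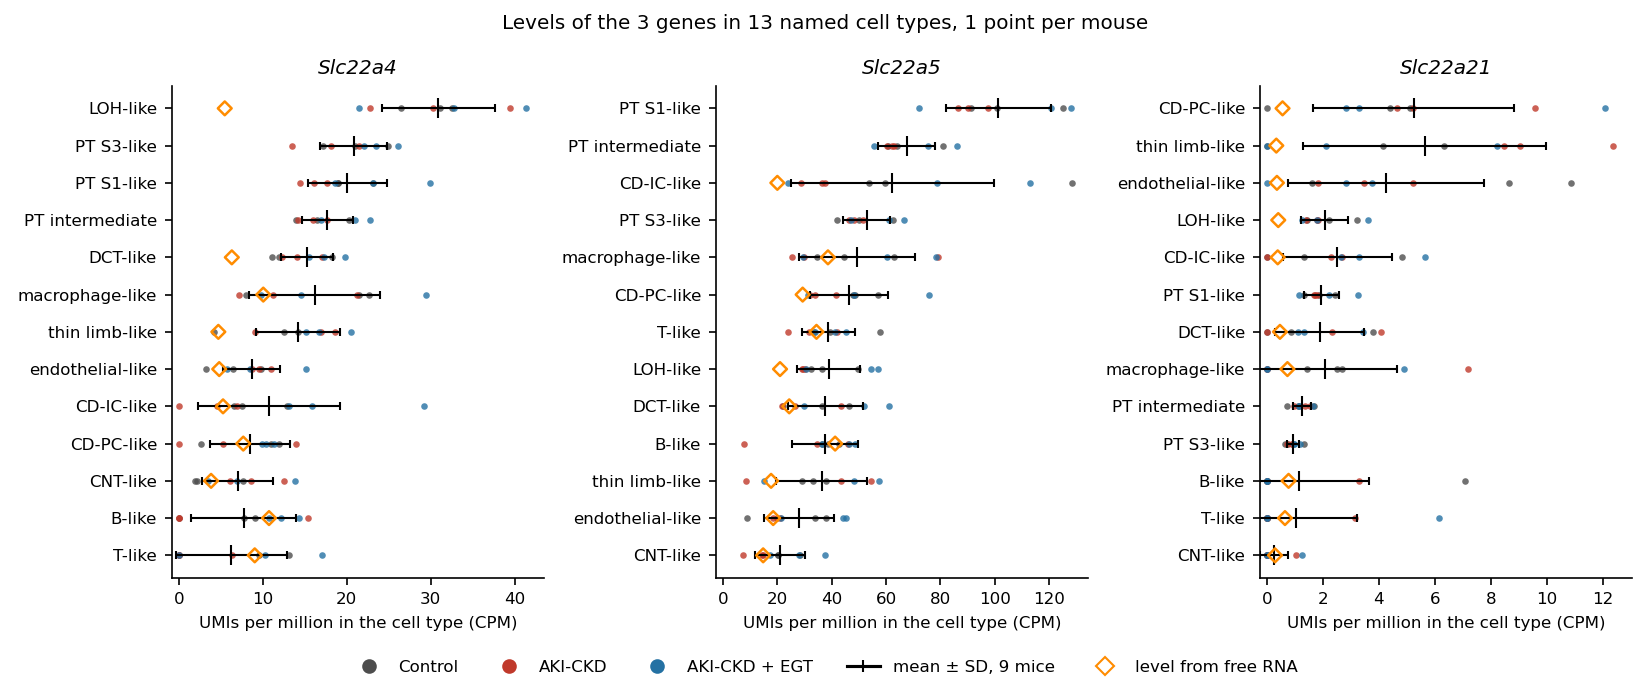
Level of each OCTN gene (CPM, 1 panel per gene) by cell type, with 1 point per mouse coloured by group, the mean ± SD of the 9 mice, and a diamond at the level that free PT RNA would give. Slc22a4 is highest in LOH-like cells (30.9 CPM) and Slc22a5 in S1-like PT cells (101 CPM), while the means of Slc22a21 reach at most 5.63 CPM.

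Along the order of 13 cell types by log2(CPM + 1), LOH-like cells exceeded the next type, S3-like PT cells (20.9 ± 4.00 CPM), by 0.54 on the log2 scale in 8 of 9 mice (exact paired permutation test, two-sided, p = 0.0078, adjusted over the 12 neighbours p = 0.047). S1-like cells (20.1 ± 4.66 CPM) exceeded intermediate cells (17.7 ± 3.05 CPM) by 0.16 in 8 of 9 mice (exact adjusted p = 0.047). The remaining neighbours, from S3-like against S1-like down to B-like against T-like cells, did not differ beyond their spread (exact adjusted p from 0.33 to 0.89). The lead of LOH-like cells moved with Malat1, a nuclear RNA whose share is high where a droplet holds mostly nuclear RNA. In cells with at most 1% Malat1 the difference was 0.05, higher in 4 of 9 mice (exact adjusted p = 0.86), with LOH-like cells at 20.1 ± 7.33 CPM and S3-like cells at 18.9 ± 3.79 CPM. Without AKI-CKD + EGT 3 it was 0.53 in 7 of 8 mice (exact adjusted p = 0.094), and it also missed the threshold under 4 of the other 6 settings tried, of which the Control mice alone (0.51 in 3 of 3) could not reach it.

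Clusters of the LOH-like and S1-like types show the same relation, given here as a description because the clusters were drawn from these cells. Of the 3 LOH-like clusters, the one with 700 cells and 27907 CPM of Malat1 had 58.5 ± 14.8 CPM of Slc22a4, whereas the others had 24.1 ± 6.05 CPM (1859 cells, Malat1 4874 CPM) and 9.05 ± 12.9 CPM (860 cells, Malat1 3572 CPM). Among the S1-like clusters, the one richest in Malat1 (12045 cells, 36642 CPM) had 37.9 ± 12.6 CPM of Slc22a4, 220 ± 52.4 CPM of Slc22a5 and 4.28 ± 1.502 CPM of Slc22a21. The other S1-like clusters ranged from 8.30 to 18.8 CPM for Slc22a4 and from 31.6 to 93.8 CPM for Slc22a5. Slc22a4 also rose with Malat1 over the intermediate (14.0 to 21.2 CPM) and DCT-like clusters (12.1 to 19.9 CPM). In endothelial-like cells it did not, with 3.19 CPM at a Malat1 of 7582 CPM and 11.4 CPM at 6238 CPM. The S3-like cluster of 25407 cells (Malat1 1806 CPM) had 18.2 CPM. Other S3-like clusters had 14.1 and 14.2 CPM at 2753 and 4627 CPM of Malat1 and 27.5 CPM at 10357 CPM. The share of nuclear RNA and the level of the genes in a cell cannot be told apart here.

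**Figure D2:**
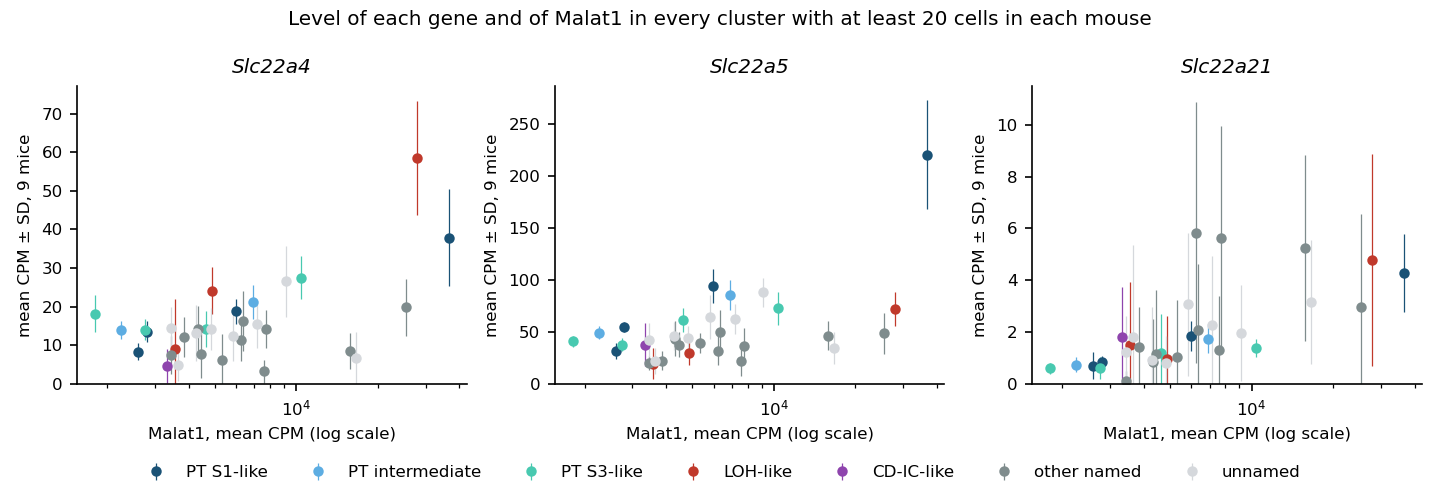
Level of each OCTN gene (mean CPM ± SD of 9 mice, 1 point per cluster with at least 20 cells in each mouse) against the Malat1 level of the cluster (mean CPM, log axis), coloured by cell type. The clusters with the highest Malat1, S1-like at 36642 CPM and LOH-like at 27907 CPM, hold 37.9 and 58.5 CPM of Slc22a4.

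Slc22a5, the carnitine transporter, was read in 51815 UMIs, in 20.2% of PT cells (6.57% after thinning to 1000 UMIs), and fell from S1-like to S3-like cells of the proximal tubule. PT cells as a whole had 75.6 ± 13.4 CPM. In S1-like cells the 9 mice ranged from 72.3 to 128 CPM with a mean of 101 ± 19.2 CPM, in intermediate cells from 55.7 to 86.1 CPM with 67.6 ± 10.55 CPM, and in S3-like cells from 42.0 to 66.7 CPM with 52.8 ± 8.52 CPM. In every mouse S1-like cells lay above intermediate cells and intermediate cells above S3-like cells. The log2 difference was -0.57 for intermediate minus S1-like, -0.35 for S3-like minus intermediate and -0.92 for S3-like minus S1-like (exact paired permutation test, two-sided, p = 0.0039, the smallest that 9 pairs allow, adjusted over 9 pairs p = 0.0088). Without AKI-CKD + EGT 3 these were -0.56, -0.36 and -0.91, below 0 in 8 of 8 mice (exact adjusted p = 0.018).

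Slc22a21 followed the same order in PT at a level near the limit of detection. It was read in 1076 UMIs, 877 of them in PT cells, and 0.504% of PT cells held a UMI (0.136% after thinning). S1-like cells had 1.93 ± 0.628 CPM, intermediate cells 1.26 ± 0.331 CPM and S3-like cells 0.925 ± 0.224 CPM. The differences were -0.37 for intermediate minus S1-like, -0.22 for S3-like minus intermediate and -0.59 for S3-like minus S1-like (exact adjusted p = 0.010, 0.010 and 0.0088). Without AKI-CKD + EGT 3 these were -0.33, -0.22 and -0.54 (exact adjusted p = 0.020, 0.020 and 0.018). Since Slc22a21 shares transcript ends with Slc22a5, a part of its reads may be reads of Slc22a5, which was not tested.

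The PT levels of Slc22a4 were in another order. S3-like minus S1-like was 0.06 (higher in 6 of 9 mice, exact adjusted p = 0.32), intermediate minus S1-like -0.16 (exact adjusted p = 0.010) and S3-like minus intermediate 0.22 (exact adjusted p = 0.013). Without AKI-CKD + EGT 3 they were 0.09 (6 of 8 mice, exact adjusted p = 0.13), -0.12 (exact adjusted p = 0.020) and 0.21 (exact adjusted p = 0.026). This order depended on the share of total UMIs taken by a few transcripts. With Kap, mitochondrial, ribosomal protein and Malat1 UMIs left out of the totals, S3-like exceeded S1-like cells by 0.28 (exact adjusted p = 0.0059) and intermediate minus S1-like missed the threshold (-0.07, exact adjusted p = 0.31). In cells with at most 1% Malat1, S3-like exceeded S1-like cells by 0.33 (exact adjusted p = 0.014), and intermediate minus S1-like turned to 0.14 (exact adjusted p = 0.050). The fall of Slc22a5 from S1-like to S3-like cells passed the threshold under both alternatives but was smaller, at -0.69 with those UMIs left out (exact adjusted p = 0.0059) and -0.50 in Malat1-poor cells (exact adjusted p = 0.012), against -0.92 in all kept cells. That of Slc22a21 was -0.51 and -0.31 (exact adjusted p = 0.0059 and 0.012), against -0.59. The step of Slc22a5 from S1-like to intermediate cells was -0.11 in Malat1-poor cells (exact adjusted p = 0.083), and that of Slc22a21 was -0.0061 (exact adjusted p = 0.92).

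**Figure D3:**
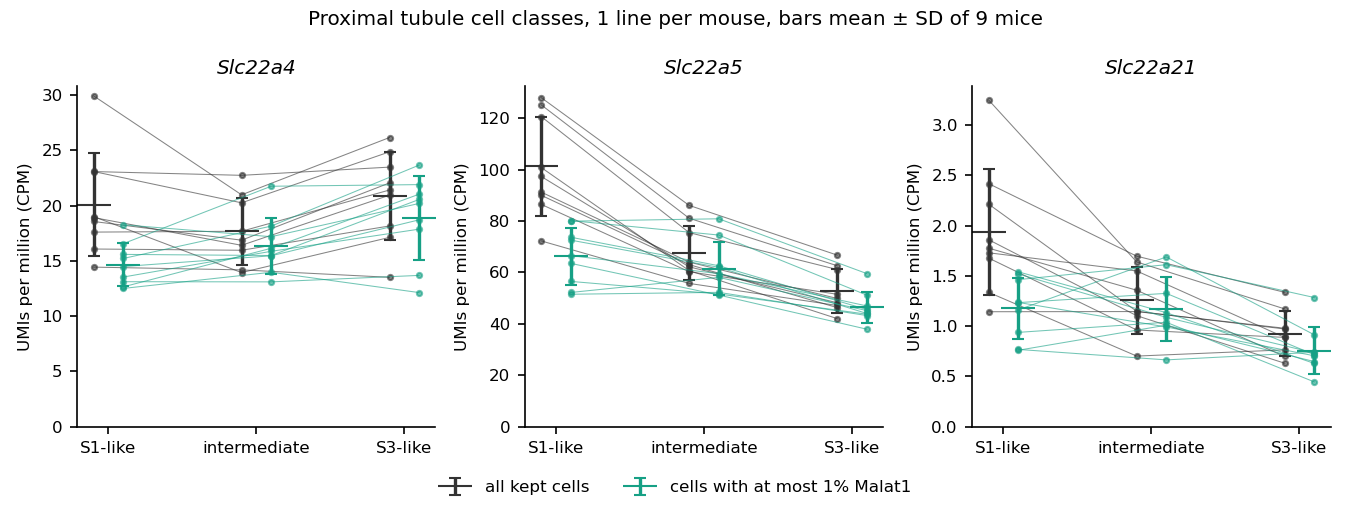
Level of each OCTN gene (CPM, 1 panel per gene) in S1-like, intermediate and S3-like PT cells, with 1 line per mouse and bars for the mean ± SD of 9 mice, for all kept cells (dark) and for cells with at most 1% Malat1 (green). In all kept cells the lines of Slc22a5 fall in all 9 mice, from a mean of 101 to 52.8 CPM, whereas the means of Slc22a4 are 20.1 CPM in S1-like and 20.9 CPM in S3-like cells.

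Outside PT, Slc22a5 had its highest mean in CD-IC-like cells, which secrete acid or base, at 62.2 ± 37.4 CPM against a free-RNA level of 19.99 ± 7.12 CPM, above it in 9 of 9 mice. Its 2 clusters lay far apart: pooled over mice, the cluster of 930 cells had 36.9 CPM of Slc22a5 and 3432 CPM of Malat1, and that of 265 cells had 171 CPM of Slc22a5 and 31401 CPM of Malat1. With clusters from uncorrected components the CD-IC-like mean was 37.5 ± 20.4 CPM, rank 9 of the 13 types, and in cells with at most 1% Malat1 it was 32.1 ± 11.6 CPM, rank 7. CD-PC-like (46.3 ± 14.2 CPM against 29.3), LOH-like (38.8 ± 11.5 against 20.98) and DCT-like cells (37.7 ± 13.9 against 24.4) also lay above it in all 9 mice. CNT-like (20.9 ± 9.13 CPM against 14.8), endothelial-like (27.8 ± 12.8 against 18.5) and thin limb-like cells (36.3 ± 16.8 against 17.7) did so in 8 mice. Macrophage-like (49.3 ± 21.4 CPM against 38.6), T-like (38.7 ± 9.65 against 34.4) and B-like cells (37.5 ± 12.2 against 41.2) were above it in 6, 5 and 5 mice, so that their Slc22a5 was not separable from free PT RNA. Pooled stromal-like cells gave 30.2 CPM from 43 UMIs (exact Poisson 95% interval 21.8 to 40.7) and pooled podocyte-like cells 23.7 CPM from 8 UMIs (10.2 to 46.6). In the order of types, S1-like cells exceeded intermediate cells (exact adjusted p = 0.047), and no other neighbouring pair differed beyond its spread (exact adjusted p from 0.62 to 0.96).

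Among the types compared by mouse, Slc22a21 had its highest means in CD-PC-like (5.24 ± 3.60 CPM, 20 UMIs), thin limb-like (5.63 ± 4.33 CPM, 11 UMIs) and endothelial-like cells (4.25 ± 3.49 CPM, 29 UMIs). The free-RNA levels there were 0.555, 0.332 and 0.354 CPM. In CD-PC-like cells 8 of 9 mice lay above it, but single mice rested on 0 to 7 UMIs. LOH-like (2.06 ± 0.823 CPM, 18 UMIs), CD-IC-like (2.52 ± 1.93, 17 UMIs), DCT-like (1.88 ± 1.59, 24 UMIs) and macrophage-like cells (2.08 ± 2.56, 7 UMIs) followed. B-like (1.15 ± 2.48 CPM), T-like (1.04 ± 2.19 CPM) and CNT-like cells (0.255 ± 0.508 CPM) held 2 to 4 UMIs each. Pooled podocyte-like cells gave 11.8 CPM from 4 UMIs (exact Poisson 95% interval 3.22 to 30.3) and pooled stromal-like cells 2.11 CPM from 3 UMIs (0.434 to 6.16). None of the 12 neighbouring pairs passed the threshold (exact adjusted p from 0.094 to 0.98), so the order of types was not resolved at this depth.

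Over the 13 types, the mean log2(CPM + 1) of the OCTN genes correlated at r = 0.44 for Slc22a4 with Slc22a5, 0.30 for Slc22a4 with Slc22a21 and 0.16 for Slc22a5 with Slc22a21, as a description over types that share libraries. Of 14881 genes ranked for likeness, the closest to Slc22a4 were Morc4 (r = 0.91), 4931440P22Rik (0.90), Inca1 (0.90), Gm17251 (0.89) and Chchd5 (0.88). The closest to Slc22a5 were Lama1 (0.97), Bnc2 (0.96), Fggy (0.96), Slc35f3 (0.95) and Dnajc13 (0.95), each highest in S1-like cells. The closest to Slc22a21 were Glt8d1 (0.96), Trmt13 (0.96), Tasor (0.96), Lncppara (0.93) and Zfand3 (0.93), each highest in CD-PC-like cells. In the types outside PT, Slc22a21 held only 2 to 29 UMIs each, and its order of types was not resolved. These genes have the highest r of all genes ranked, and their likeness was not tested.

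The group comparison asked whether cisplatin injury, or EGT given with it, went with a change of the EGT carrier or its relatives. In PT cells, Slc22a4 stood at 17.2, 19.2 and 23.3 CPM in Control mice, at 19.0, 14.1 and 16.9 CPM among AKI-CKD mice and at 19.3, 23.2 and 26.8 CPM in AKI-CKD + EGT mice. On this scale all EGT-treated mice lay above all AKI-CKD mice, while Control overlapped with both. After TMM scaling, which sets libraries to a common centre, the AKI-CKD mice had 19.8, 14.9 and 18.9 CPM and the AKI-CKD + EGT mice 19.2, 22.03 and 22.4 CPM, and these groups overlapped. With edgeR's quasi-likelihood test on UMI counts summed per mouse, Slc22a4 differed by 0.25 on the log2 scale for AKI-CKD + EGT minus AKI-CKD (95% interval -0.11 to 0.61, adjusted p = 0.50) and by -0.18 for AKI-CKD minus Control (-0.54 to 0.18, adjusted p = 0.69). With single mice left out the EGT contrast ran from 0.12 (without AKI-CKD 2) to 0.32 (without AKI-CKD 1), and was 0.21 without AKI-CKD + EGT 3 (edgeR adjusted p = 0.82). AKI-CKD minus Control ran from -0.32 (without Control 1) to -0.03 (without Control 3), and was -0.06 without AKI-CKD 2. With plain library totals the EGT contrast was 0.47 (edgeR adjusted p = 0.21), where the median of all genes had shifted by 0.21.

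Slc22a5 in PT cells had 94.0, 67.0 and 66.2 CPM in Control mice, 70.9, 71.5 and 66.0 CPM in AKI-CKD mice and 60.3, 94.7 and 90.2 CPM in AKI-CKD + EGT mice, so that all groups overlapped. Its log2 difference was -0.03 for AKI-CKD minus Control (95% interval -0.38 to 0.32) and 0.01 for AKI-CKD + EGT minus AKI-CKD (-0.34 to 0.36). Slc22a21 had 1.89, 1.17 and 0.936 CPM in Control mice. Its AKI-CKD mice had 1.37, 1.31 and 1.25 CPM and its AKI-CKD + EGT mice 1.09, 1.49 and 2.18 CPM, so that these groups overlapped too. Its differences were 0.08 (-0.53 to 0.69) and 0.04 (-0.58 to 0.65). Differences within these intervals remain possible with 3 mice per group, and the intervals are not a limit of detection.

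**Figure D4:**
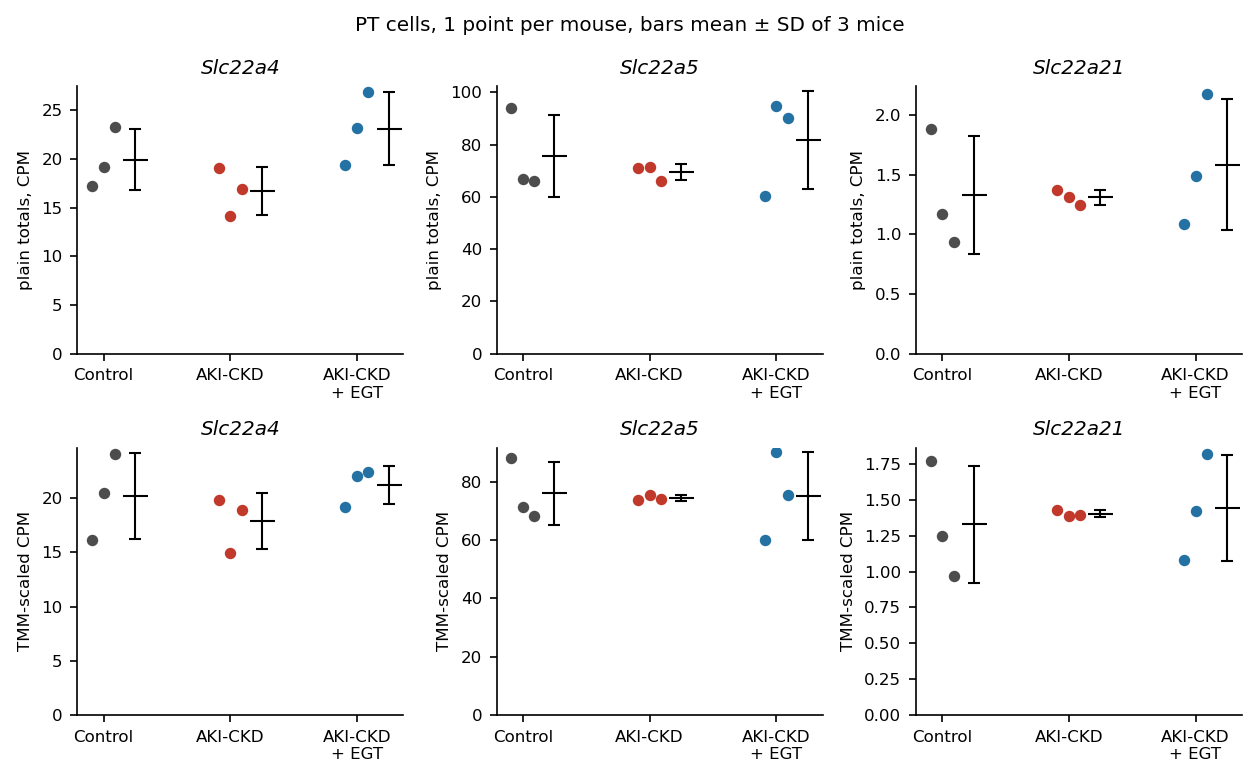
Level of each OCTN gene in PT cells by group, as plain CPM (upper row) and TMM-scaled CPM (lower row), with 1 point per mouse and the mean ± SD of 3 mice. As plain CPM, for Slc22a4 the AKI-CKD + EGT mice (19.3 to 26.8 CPM) lie above the AKI-CKD mice (14.1 to 19.0 CPM), and for Slc22a5 and Slc22a21 all groups overlap.

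None of the 3 genes passed an adjusted p of 0.05 in PT cells in any contrast. Of the 18332 genes tested there, 0.0436% passed for AKI-CKD minus Control, 0.0% for AKI-CKD + EGT minus AKI-CKD and 0.0% for AKI-CKD + EGT minus Control, and at an unadjusted p under 0.05 they were 10.4%, 14.8% and 7.2%. In all kept cells the count was again 0 of 3, where 0.0199%, 0.00496% and 0.00496% of 20144 genes passed and 8.02%, 12.7% and 7.94% had an unadjusted p under 0.05. Over all 15 populations and 3 contrasts, enough counts for a test were present for Slc22a4 in 7 populations, for Slc22a5 in 13 and for Slc22a21 in 5. Of these 75 tests, 0 passed with edgeR and 0 with DESeq2 (adjusted values that DESeq2 does not give were not counted), where 0.0254% of 441048 tests of all genes passed with edgeR. At an unadjusted p under 0.05 there were 5, or 4 higher and 1 lower, where 9.53% of the tests of all genes had such a p. TMM-scaled values of the compared groups did not overlap in 6 of the 75 tests. The share of all genes without overlap was not determined, so that a lack of overlap named below is a description only.

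The share of all genes past the adjusted threshold was low in nearly every type in which an OCTN gene was tested. For AKI-CKD minus Control it was 0.0182% in S1-like, 0.0504% in intermediate and 0.0474% in S3-like cells, 0.0235% in LOH-like, 0.0234% in endothelial-like, 0.0199% in macrophage-like and 0.121% in thin limb-like cells and 0.0% in the others. For AKI-CKD + EGT minus AKI-CKD it was 0.0233% in CD-IC-like, 0.0147% in CD-PC-like, 0.0352% in LOH-like, 0.0199% in macrophage-like and 1.3% in thin limb-like cells. For AKI-CKD + EGT minus Control it was 0.0147% in CD-PC-like, 0.0117% in LOH-like and endothelial-like and 0.0241% in thin limb-like cells. In all other types tested it was 0.0%.

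The share of PT cells with a UMI of Slc22a4, after thinning, was 1.79 ± 0.292% in Control mice, 1.52 ± 0.246% with cisplatin alone and 2.12 ± 0.299% with cisplatin and EGT (unthinned 6.30, 5.69 and 7.65%). AKI-CKD + EGT and AKI-CKD mice did not overlap, with an exact permutation p of 0.1, the smallest that 3 against 3 mice allow, and an adjusted p of 0.72 over 9 comparisons. For Slc22a5 the shares were 6.49 ± 1.07%, 6.07 ± 0.446% and 7.15 ± 1.62%. For Slc22a21 they were 0.121 ± 0.0475%, 0.118 ± 0.0127% and 0.168 ± 0.0577%. The difference of the group effect between S3-like and S1-like cells gave an exact permutation p of at least 0.4 for all 3 genes (adjusted p = 1 for all 9 comparisons). Because the smallest p is 0.1, no comparison of shares or of these effects could pass the threshold.

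By segment, the closest to a difference was Slc22a4 in S1-like cells. There TMM-scaled values were 17.8, 19.3 and 22.8 CPM in Control mice, 18.2, 16.05 and 17.5 CPM in AKI-CKD mice and 18.9, 22.01 and 26.3 CPM in AKI-CKD + EGT mice. The EGT-treated mice lay above the AKI-CKD mice without overlap, by 0.38 on the log2 scale (95% interval 0.06 to 0.70, edgeR unadjusted p = 0.025, adjusted p = 0.31). Without AKI-CKD + EGT 3 the difference was 0.24, without AKI-CKD + EGT 1 it was 0.52 and in cells with at most 1% Malat1 it was 0.24. In intermediate and S3-like cells it was 0.19 (-0.16 to 0.53) and 0.24 (-0.16 to 0.63), in DCT-like cells 0.13 (-0.48 to 0.74) and in LOH-like cells, where the level was highest, 0.11 (-0.50 to 0.72). The log2 difference was above 0 in all 5 types tested, which share the same mice, and passed the threshold in none. How many of all genes keep the same sign over these types was not determined.

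For Slc22a5 the log2 difference between AKI-CKD + EGT and AKI-CKD mice was above 0 in all 11 types tested (0.03 to 1.19) and that between AKI-CKD and Control mice below 0 in 10 of 11, with no type past the threshold. The median of all genes tested in these types ran from -0.02 to 0.03 in the first contrast and from -0.03 to 0.02 in the second. Over all kept cells the first was -0.02 for Slc22a5. The contrasts share the AKI-CKD mice and the types share the mice, so that these counts are not independent of each other. The share of all genes with the same sign over these types was not determined. In CD-IC-like cells the Control mice had 128, 53.8 and 59.8 CPM, the AKI-CKD mice 28.8, 37.5 and 36.3 CPM and the AKI-CKD + EGT mice 23.7, 78.7 and 113 CPM. AKI-CKD mice lay below Control mice without overlap, by -1.14 on the log2 scale (95% interval -2.13 to -0.15, edgeR adjusted p = 0.49), and the EGT contrast was 1.03 (0.06 to 2.00, adjusted p = 0.39). The largest share of a single mouse was 33.6% in the CD-IC-like cluster of 265 cells and 16.7% in that of 930 cells. The mice thus mixed these clusters unequally, and the part of this mix in the differences was not tested. In CNT-like cells the Control mice had 20.3, 28.4 and 20.4 CPM, the AKI-CKD mice 14.5, 7.25 and 14.4 CPM and the AKI-CKD + EGT mice 17.2, 27.8 and 37.6 CPM. AKI-CKD mice were the lowest 3 of the 9, at -0.90 against Control (-1.82 to 0.02, edgeR adjusted p = 0.84), and the EGT contrast was 1.19 (0.35 to 2.03, adjusted p = 0.40). The CNT-like cells of all 9 mice together held 114 UMIs of Slc22a5. No AKI-CKD value exceeded the mean free-RNA level given above for these cells, although most mice lay above their own level. In LOH-like cells the values were 49.7, 36.4 and 32.5, then 30.3, 29.1 and 29.6, then 30.4, 54.3 and 57.0 CPM, with an EGT contrast of 0.68 (0.09 to 1.26, edgeR adjusted p = 0.29).

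These differences moved with single libraries and with the choice of cells. In cells with at most 1% Malat1, Slc22a5 in CD-IC-like cells differed by -0.18 for AKI-CKD minus Control and by 0.37 for AKI-CKD + EGT minus AKI-CKD, while the latter was 0.97 in CNT-like and 0.49 in LOH-like cells. With clusters from uncorrected components the CD-IC-like difference between AKI-CKD and Control was -0.74 and the EGT contrast in CNT-like cells 1.71, which was 0.87 with a mitochondrial limit of 10%. Without AKI-CKD + EGT 3 the EGT contrast was 0.53 in CD-IC-like, 0.81 in CNT-like and 0.46 in LOH-like cells. Without AKI-CKD + EGT 1 it was larger, at 1.38, 1.47 and 0.86 in these types. Without Control 1 the CD-IC-like difference between AKI-CKD and Control was -0.61. With the 6% highest Scrublet scores left out, the CD-IC-like differences were -1.53 for AKI-CKD minus Control and 1.40 for the EGT contrast. None of these passed the adjusted threshold. AKI-CKD + EGT 3 was the mouse with the highest Malat1 in PT cells (13886 CPM, against 2681 to 9203 CPM in the other 8). The mitochondrial share of PT UMIs was highest in Control 1 (6.00%) and AKI-CKD + EGT 3 (5.90%). Over the 9 mice, Slc22a21 in PT cells correlated with the mitochondrial share of PT UMIs at Pearson's r = 0.86 (permutation p = 0.0033, adjusted over 9 relations p = 0.030) and Spearman's rho = 0.73 (permutation p = 0.031, adjusted p = 0.27), and r was 0.54 without the 2 mice farthest from the median (permutation p = 0.21). Within the groups 3 mice are too few for a correlation. Slc22a5 correlated with that share at r = 0.78 (rho = 0.67, permutation adjusted p = 0.079 and 0.27), and Slc22a4 with Malat1 at r = 0.67 (rho = 0.53, permutation adjusted p = 0.15 and 0.44). Without the 2 mice farthest from the median of the quality measure these fell to r = 0.51 (permutation p = 0.26) and r = 0.21 (permutation p = 0.64). None of the 3 relations passed without those mice, which leaves 7 mice and a narrower range of the measure. The part of RNA quality in the group differences was not tested.

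**Figure D5:**
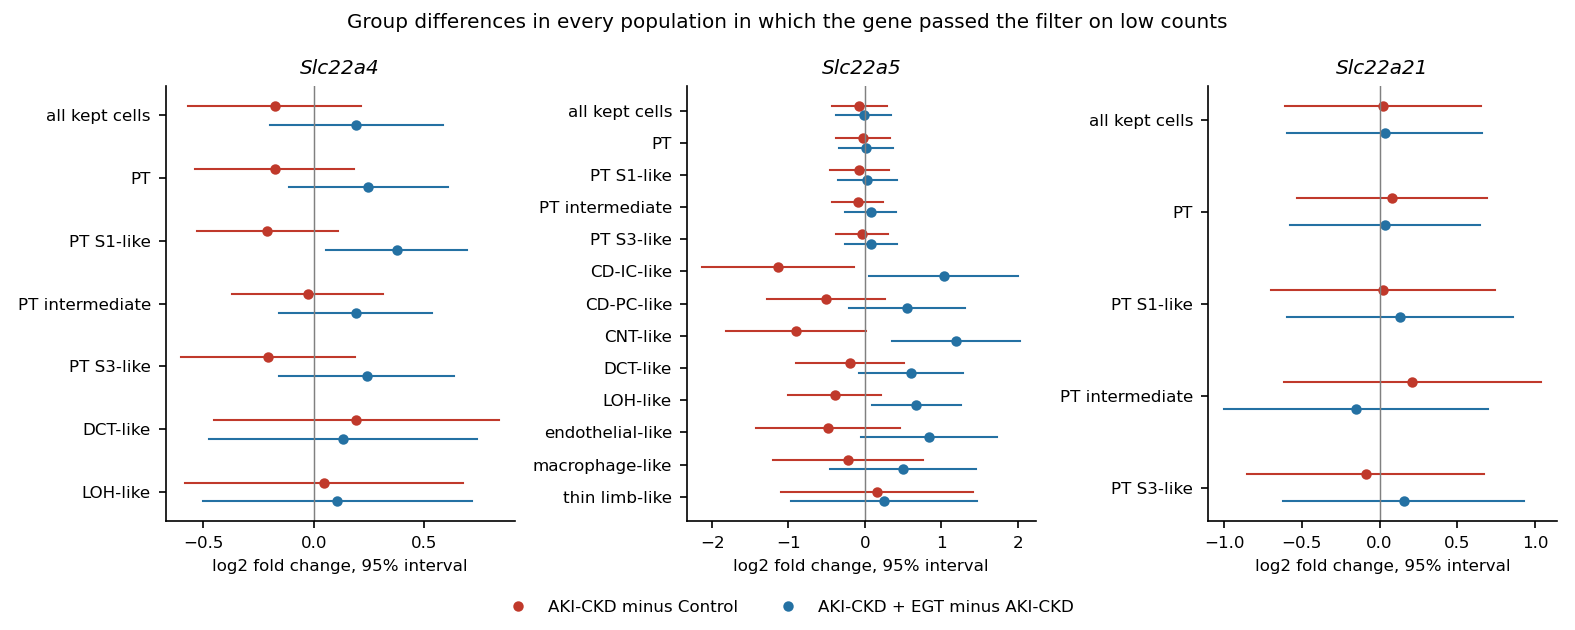
Log2 fold change of each OCTN gene (points, with 95% intervals from edgeR) by population for AKI-CKD minus Control and AKI-CKD + EGT minus AKI-CKD. All adjusted p lie above 0.05, and the points farthest from 0 are those of Slc22a5 in CD-IC-like (-1.14 and 1.03) and CNT-like cells (-0.90 and 1.19).

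Genes that work with the OCTN carriers were read in the same fits. PDZ scaffolds hold Slc22a5 and other carriers at the brush border. In PT cells Pdzk1ip1 stood at 1914 ± 264 CPM, its partner Pdzk1 at 694 ± 71.9 CPM and the scaffold Nherf1 at 154 ± 14.1 CPM. None of the 5 listed passed the threshold in PT cells in any contrast, and for AKI-CKD minus Control their median log2 difference was 0.27, beside -0.01 over all genes tested. Pdzk1ip1 differed by 0.39 (-0.02 to 0.81) there and by -0.45 (-0.87 to -0.03, edgeR adjusted p = 0.31) for AKI-CKD + EGT minus AKI-CKD.

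Of 11 genes of carnitine supply and shuttle, 9 had enough counts in PT cells and 0 passed in any contrast, with a median of -0.10 for AKI-CKD minus Control and -0.09 for AKI-CKD + EGT minus AKI-CKD. Aldh9a1, an aldehyde dehydrogenase of carnitine synthesis, had 191 ± 22.6 CPM, Cpt1a, which passes long-chain acyl groups to carnitine for entry into mitochondria, 106 ± 18.0 CPM, and Crot, the peroxisomal carnitine octanoyltransferase, 69.8 ± 12.4 CPM. For AKI-CKD minus Control these 3 differed by -0.01, -0.11 and -0.31, and for the EGT contrast by -0.25, -0.09 and -0.12. Of 8 further organic cation and zwitterion transporters 7 were tested and 0 passed. Slc22a2, which brings organic cations in from blood, had 249 ± 37.7 CPM, and Slc47a1, which exports them to urine, 239 ± 29.4 CPM. Their EGT contrasts were -0.09 and 0.10.

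Among 10 regulators 0 passed. Hnf4a, a factor of proximal tubule identity, differed by -0.07 and 0.04 in the 2 successive contrasts, Ppara, which drives fatty acid use, by -0.10 and -0.20, and its partner Rxra by 0.38 (0.06 to 0.70) and -0.35 (-0.67 to -0.02), with edgeR adjusted p of 0.43 and 0.31. Of 8 genes linked to ergothioneine, Prkaa2, a catalytic subunit of AMP-activated kinase, and Nfe2l2, the antioxidant factor Nrf2, had the highest PT levels (71.5 ± 5.38 and 70.8 ± 4.47 CPM). Hmox1, a target of Nrf2, varied most between mice, from 26.5 to 203 CPM (56.3 ± 56.2 CPM). None of the 8 passed, and the EGT contrasts of these 3 in PT were -0.02, -0.17 and -0.32. The 4 neighbours of the OCTN genes on the chromosome had 0 past the threshold as well, with P4ha2 at 0.06 and -0.19, Rad50 at -0.11 and -0.05 and Irf1 at -0.58 and 1.44 (the last with an interval of -0.25 to 3.13).

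Of 8 genes known from injured tubules 1 passed, Cdkn1a, the cell cycle inhibitor p21, which in PT cells was higher in AKI-CKD than in Control mice by 3.47 on the log2 scale (95% interval 2.44 to 4.49, edgeR adjusted p = 0.037). This call was lost without Control 1, 2 or 3, AKI-CKD 2 or 3 or AKI-CKD + EGT 3, with only the 6 mice compared, with plain library totals and with the replicate block, where 0 listed genes passed. In these 9 fits the difference was 3.14 to 3.66 (edgeR adjusted p from 0.063 to 0.20). Spp1, osteopontin, differed by 0.81 (0.14 to 1.49, adjusted p = 0.42) and Clu, clusterin, by -0.44 (-1.24 to 0.35). For AKI-CKD + EGT minus AKI-CKD in PT cells the difference was -1.57 for Cdkn1a (-2.52 to -0.63, edgeR adjusted p = 0.21), 1.26 for Clu (0.45 to 2.06, edgeR adjusted p = 0.23) and -0.17 for Spp1 (-0.85 to 0.50, edgeR adjusted p = 0.82), and none of the 3 passed. Of the 8 dissociation genes 0 passed, with Jun at 0.25 and -0.12, Fos at 0.31 and -0.21 and Egr1 at 0.19 and 0.22 in the 2 contrasts. The heat shock genes Hspa1a and Hspa1b among them had the values farthest from 0 for AKI-CKD + EGT minus AKI-CKD, at -1.52 (-2.76 to -0.29, edgeR adjusted p = 0.28) and -1.65 (-2.96 to -0.33, edgeR adjusted p = 0.27), and were named after their values were seen. Of the 10 PT transcripts used to gauge free RNA 0 passed, with a median of 0.06 and -0.27. Kap and Miox among them differed by -0.21 and -0.25 for AKI-CKD + EGT minus AKI-CKD. In all kept cells none of the listed genes passed in any contrast. DESeq2 called more of them: 1 in all kept cells for AKI-CKD minus Control, 1 for AKI-CKD + EGT minus Control, and 1 and 2 in PT cells for the contrasts of AKI-CKD + EGT with AKI-CKD and with Control, none of them an OCTN gene.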

How the data were processed

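Kidney cells of 9 mice were captured in droplets (DNBelab C-TaiM4, poly(dT) priming). The authors deposited 1 matrix of UMI counts per mouse, not normalized, for 216680 barcodes and 32427 genes, with gene names as written by the program PISA. The submitters' processing notes name GRCm39, and the aligner, annotation and treatment of reads with several matches are not given in the sources used here. Total UMIs were 70106161 to 101525691 per library and 17196 to 27463 cells were kept per mouse. The study states the same limits on cells but a smaller number of kept cells.

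Cells below 1000 UMIs or 500 genes, or above 15% mitochondrial UMIs, were removed. Components (30, from 2000 variable genes) were corrected for the library with Harmony, rewritten in numpy 2.4.6, and clustered with igraph 0.11.9 (20 neighbours, resolution 1.1, then 1.5 outside PT). Clusters of the first round were taken as PT where no marker list of another cell type had a mean log2 fold above 1. The others were clustered again and named from 22 marker lists where at least 3 markers were at least 2-fold higher. Such a name also needed a mean log2 fold of at least 1 and a lead of 1 over the next type. No other list could lead among the top genes, and PT transcripts could reach at most 0.6 of the PT level. The OCTN genes, listed genes that are no markers, mitochondrial and ribosomal genes and Malat1 did not enter the clustering. Doublets were kept, because the Scrublet procedure set almost no calls of its own, and in an alternative the top 6% of Scrublet scores were dropped.

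UMIs were summed per mouse and cell type with at least 20 cells in each mouse. Groups were compared with edgeR 4.0.16 (R 4.3.3; quasi-likelihood test, TMM, filterByExpr, all 9 mice in 1 fit) and Benjamini-Hochberg adjustment over all genes of a population, with DESeq2 1.42.0 as an alternative. Cell types and PT segments were compared within mice by exact sign-flip permutation tests (two-sided) on log2(CPM + 1). The p-values of the group tests measure the spread between mice of a group, 3 per group, which edgeR estimates from all 9 mice together. Those of the sign-flip tests measure the spread of differences within mice, over the 9 mice of all groups. Tests were run on simulated data first. The groups came from the labels. The study tested single cells, whereas cells were not used as replicates here. Named genes are the OCTN genes, the 3 genes of each list with the highest PT level, every listed gene past an adjusted p of 0.05, and the 5 genes most like each OCTN gene over 13 types, among genes that reach 5 CPM in at least 1 type. Hspa1a and Hspa1b were named outside this rule. Some genes that this rule names are not reported here. The members and lists were chosen with earlier results of these data known. Sequences are from GRCm38 with GENCODE vM21, which is another build than that of the counts, and no sequence was read at coordinates of the counts.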

Additional observations from a re-analysis of the deposited data

How the results depend on the processing

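Apart from single mice left out, 347 of the alternative values kept their direction and their side of the threshold or were counts that stayed close. Another 24 reversed, 21 counts moved, 8 results lost the threshold and 2 gained it. With single mice left out, 336 were unchanged in this sense, 46 reversed, 8 counts moved and 1 lost the threshold. The unchanged values include exact tests of 3 against 3 mice, which could not pass the threshold under any setting. No OCTN gene passed an adjusted p of 0.05 in any population under any alternative. The causes of the changes were not tested. Plain library totals, cells with at most 1% Malat1, the sum of Slc22a5 and Slc22a21, totals without Kap, mitochondrial, ribosomal protein and Malat1 UMIs, and the order and segments without AKI-CKD + EGT 3 were chosen after seeing the data.

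Under the settings named next, group differences that changed sign ran from -0.19 to 0.23 on the log2 scale. With cells of at most 1% Malat1, Slc22a4 for AKI-CKD + EGT minus Control in all kept cells was -0.013, Slc22a5 in PT was 0.032 for AKI-CKD minus Control and -0.049 for AKI-CKD + EGT minus AKI-CKD, and Slc22a21 was -0.18 in all kept cells and -0.19 in PT for AKI-CKD + EGT minus AKI-CKD and -0.051 and -0.047 for AKI-CKD + EGT minus Control. With no filter on low counts, Slc22a4 for AKI-CKD + EGT minus Control in all kept cells was -0.012, and for AKI-CKD + EGT minus AKI-CKD in PT Slc22a5 was -0.019 and Slc22a21 -4.43e-05. With plain totals, Slc22a5 was 0.23 for AKI-CKD + EGT minus AKI-CKD and 0.078 for AKI-CKD + EGT minus Control in all kept cells and 0.11 for the latter in PT, and Slc22a21 was -0.059 in all kept cells and -0.020 in PT for AKI-CKD minus Control. With uncorrected components Slc22a5 was 0.054 in PT for AKI-CKD + EGT minus Control. With a mitochondrial limit of 10%, Slc22a21 was -0.013 and -0.0044 in all kept cells for AKI-CKD + EGT minus AKI-CKD and minus Control, and -0.0050 in PT for the former. Without the highest Scrublet scores Slc22a21 in all kept cells was -0.038 for AKI-CKD minus Control.

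Listed genes past the threshold numbered 1 in PT for AKI-CKD minus Control and 0 elsewhere. They were 0 there with only the 6 mice compared, with plain totals and with the replicate block, and 0 to 1 without single mice. In PT they were 1 with DESeq2 and 2 with no filter for AKI-CKD + EGT minus AKI-CKD, and 2 under each for AKI-CKD + EGT minus Control. In all kept cells they were 1 with DESeq2 and with no filter for AKI-CKD minus Control, and 1 with DESeq2 for AKI-CKD + EGT minus Control. Over all genes in PT, DESeq2 called 85 higher and 107 lower for AKI-CKD minus Control, 314 and 168 for AKI-CKD + EGT minus AKI-CKD and 25 and 70 for AKI-CKD + EGT minus Control, where edgeR called 7 and 1, 0 and 0, and 0 and 0. In all kept cells DESeq2 called 58 and 82, 125 and 118, and 23 and 86, where edgeR called 3 and 1, 1 and 0, and 1 and 0.

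Neighbouring cell types past the threshold for Slc22a4 numbered 2, and 0 with the mean over cells, without the highest Scrublet scores, in Control mice only, in cells with at most 1% Malat1 and without AKI-CKD + EGT 3, and 1 with the 10% mitochondrial limit, uncorrected components and totals without Kap and the like. For Slc22a5 they numbered 1, and 2 with the mean over cells, without the highest Scrublet scores, with totals without Kap and the like and without AKI-CKD + EGT 3, and 0 in Control mice only. With 3 Control mice no pair of types could pass, so that the results of that setting were fixed in advance. The LOH-like minus S3-like difference of Slc22a4 missed the threshold with the mean over cells (0.58), without the highest Scrublet scores (0.53), in Control mice only (0.51), with totals without Kap and the like (0.36), in cells with at most 1% Malat1 (0.054) and without AKI-CKD + EGT 3 (0.53). Slc22a4 in S3-like minus S1-like cells passed it with totals without Kap and the like (0.28) and with at most 1% Malat1 (0.33), and its intermediate minus S1-like difference was -0.074 and 0.14 under these. With at most 1% Malat1 that difference was -0.11 for Slc22a5 and -0.0061 for Slc22a21. Not thinned, the share of PT cells with Slc22a21 differed by 0.023 percentage points for AKI-CKD minus Control, and with a pseudocount of 0.5 its group effect differed between S3-like and S1-like cells by 0.019 for AKI-CKD + EGT minus AKI-CKD and 0.022 for AKI-CKD + EGT minus Control.

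Without single mice, Slc22a4 in PT ranged from -0.32 to -0.029 for AKI-CKD minus Control and from 0.12 to 0.32 for AKI-CKD + EGT minus AKI-CKD. For AKI-CKD + EGT minus Control it ranged from -0.12 to 0.16 in all kept cells and from -0.075 to 0.21 in PT. Slc22a5 in the contrasts AKI-CKD minus Control, AKI-CKD + EGT minus AKI-CKD and AKI-CKD + EGT minus Control ranged from -0.14 to 0.048, -0.18 to 0.11 and -0.24 to 0.042 in all kept cells, and from -0.095 to 0.090, -0.15 to 0.14 and -0.17 to 0.12 in PT. Slc22a21 ranged from -0.16 to 0.25, -0.16 to 0.23 and -0.15 to 0.27 in all kept cells, and from -0.099 to 0.34, -0.15 to 0.20 and -0.091 to 0.37 in PT. The PT share for AKI-CKD minus Control ranged from -0.80 to 0.195 percentage points for Slc22a5 and from -0.024 to 0.023 for Slc22a21. The segment differences of the group effect ranged from -0.0059 to 0.184, -0.197 to 0.015 and -0.115 to 0.097 for Slc22a4, from -0.056 to 0.136 for Slc22a5 (AKI-CKD + EGT minus AKI-CKD) and from -0.105 to 0.098, -0.255 to 0.171 and -0.249 to 0.178 for Slc22a21.

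No pairing of mice by replicate number was seen: over 9 same-numbered pairs the correlation of deviations ran from -0.47 to 0.34 in PT. Over 18 pairs of differing number it ran from -0.34 to 0.46. Deviations from a group mean sum to 0 within a group, so that this check cannot exclude a pairing. With the replicate block Slc22a4 in PT was -0.17 for AKI-CKD minus Control and 0.24 for AKI-CKD + EGT minus AKI-CKD, and 0 tests of OCTN genes passed. Depth limits Slc22a21, whose 1076 UMIs leave 0 to 10 per mouse in the types outside PT.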

Other observations

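The 10751 cells that stayed unnamed, 5.46% of the kept cells, held 493 UMIs of Slc22a4, 1847 of Slc22a5 and 58 of Slc22a21. Their levels over 9 mice were 14.0 ± 2.98, 51.7 ± 11.4 and 1.64 ± 0.804 CPM (SD).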
